A study of Mus musculus with 5 samples.

Results

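Mitochondria carry their own protein quality control, and 10 of its genes are described here in brown adipose tissue (BAT) of cold-exposed mice with and without the transcription factor ATF4 in brown adipocytes. The genes were listed by name for what their products do, but with earlier results of these data known. The matrix chaperones are Hspd1, Hspe1 and Hspa9, and the matrix proteases Lonp1, Clpp and Clpx. The inner membrane proteases are Yme1l1, Afg3l2, Spg7 and Oma1. All 10 were found among the 52022 genes with a matched transcript, and all 10 were among the 16450 genes with enough counts to be tested. In scaled counts the 3 chaperones were lower in every ATF4-deficient mouse than in either control, at 0.748 to 0.781 of the WT level in the fit, whereas 6 of the 7 proteases overlapped between genotypes. Of all genes tested, 10.6% were likewise lower in every ATF4-deficient mouse than in either control. In values per transcript length, where 24.9% of all genes were so, Lonp1, Yme1l1 and Afg3l2 were lower in every such mouse as well, and 4 of the 7 proteases overlapped. None of the 10 differences passed the test across all genes. Few genes did: 1 of 16450 in edgeR (0.00608%), which did not call Atf4 itself, and 121 in DESeq2 (0.736%).

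Almost all mitochondrial proteins are made in the cytosol and enter the organelle unfolded, so chaperones of the matrix must pull them in and fold them, and proteases must remove those that fail. When this balance is disturbed, cells raise transcripts of mitochondrial chaperones and proteases, a program known as the mitochondrial unfolded protein response, in which ATF4 and its relative ATF5 take part in mammals. Brown adipocytes are packed with mitochondria and enlarge their respiratory machinery in the cold, which loads the same system.

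Transcripts were measured by RNA sequencing of BAT from 5 mice, 3 labelled KO (called ATF4 BKO here) and 2 labelled WT. ATF4 BKO mice carried floxed Atf4 alleles (ATF4 fl/fl) and a Cre transgene under the Ucp1 promoter, and WT mice were ATF4 fl/fl littermates without Cre, both on the C57Bl/6J background. The labels call all 5 male, and the mice were aged 10 to 12 weeks, had free access to food and were kept for 7 days at 30 °C and then for 3 days at 4 °C. Every mouse was therefore cold-exposed, and no group shows the tissue before cold. The Cre acts in cells that express Ucp1, while the libraries came from whole tissue with all its cell types, and only the ATF4 BKO mice carried the Cre transgene. Library totals ran from 24698337 to 32452751 estimated counts.

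Levels are given on 2 scales. The first, transcripts per 1000000 transcripts (TPM), divides by transcript length, so that different genes can be set side by side. The second, counts per 1000000 counts (CPM) after scaling by the trimmed mean of M-values (TMM), was used to compare the same gene between mice.

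The genotype and the tissue were checked first. Atf4 itself stood at 32.6, 52.6 and 23.5 CPM in the 3 ATF4 BKO mice and at 285.7 and 226.4 CPM in the 2 WT mice, a log2 fold change of -2.82 ± 0.34 (SE). Its adjusted p was 0.671 in edgeR and 9.72e-12 in DESeq2, so the edgeR test did not call the deleted gene either. Fgf21, a hormone gene under ATF4 control, stood at 1.24, 0.890 and 0.572 CPM in ATF4 BKO and at 5.13 and 16.1 CPM in WT. Both genes separated the mice by their labels. Brown adipocyte markers were abundant in every library, with a summed level of 16400 to 19460 TPM for the 13 genes, led by Ucp1, the uncoupling protein of brown fat.

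Several libraries stood apart from the rest. ATF4 BKO replicate 1, labelled male, held 4598 counts of the female-expressed Xist and 34 counts over 4 Y-linked genes, against at most 7 and at least 3284 counts in the other mice. WT replicate 2 held skeletal muscle transcripts: the 22 muscle markers summed to 2540 TPM, against 515.3, 177.3 and 491.7 TPM in ATF4 BKO and 173.6 TPM in WT replicate 1. The contractile gene Myh4 showed this most plainly, with 20492 counts in WT replicate 2, 572 in WT replicate 1 and 2, 183 and 1 in ATF4 BKO, and the most abundant marker of the list, Mb, is also made in BAT. The sample names begin with S1 (ATF4 BKO replicates 1 and 2, WT replicate 1) or S2 (ATF4 BKO replicate 3, WT replicate 2), a prefix whose meaning is not given in the sources used here. Values without these mice and within each prefix are therefore given for the genes where they moved most.

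Hspd1 and Hspe1 lie head to head on mouse chromosome 1 and are read in opposite directions from a short shared stretch. Hspd1 (ENSMUSG00000025980.14) covers chr1:55077835-55088243 on the minus strand and Hspe1 (ENSMUSG00000073676.4) covers chr1:55088132-55091307 on the plus strand (GRCm38, GENCODE M21), and their longest annotated 5′ ends overlap. The 107 bases between the start of the main Hspd1 transcript at 55088024 and the start of the main Hspe1 transcript at 55088132 are shown because they separate the genes of both subunits of 1 folding chamber. They are chr1:55088025-55088131, plus strand, RefSeq GRCm38.p6, 68.2% G and C. Capitals mark a pair of overlapping matches to the heat shock element, the motif bound by heat shock factors, which was searched as GAA, its complement TTC and GAA again with any 2 bases between neighbours.
Hspd1-Hspe1 stretch: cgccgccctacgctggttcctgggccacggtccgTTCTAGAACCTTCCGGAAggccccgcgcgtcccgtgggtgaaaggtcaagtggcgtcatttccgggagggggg

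The element was searched on both strands and was found in 198 of 32851 mouse promoters of the same length (0.603%), each running from 250 bases before to 50 bases after a gene's start, while its first 8 letters alone, GAANNTTC, were in 7.86%. Hspa9 and Afg3l2 had no promoter in the RefSeq table and were not searched. Among the 8 members with a promoter there (9 promoters, 2 of them of Hspd1), only the promoter of Hspe1 and 1 of those of Hspd1 held either form, both through the stretch above. The element bound by ATF4 with its partners, TGATGNAA, was in 3.97% of all promoters and in none of these 9, and the cAMP response element TGACGTCA was in 1.79% and in none of these 9. The element of the respiratory gene regulator NRF1, searched as GCGCA and GCGC with any base between, was in 4.6% of all promoters and occurred in the other promoter of Hspd1, in that of Oma1 and at 2 places in that of Spg7. These letter matches describe the windows searched and say nothing of binding.

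The other members are spread over the genome (GRCm38, GENCODE M21). Hspa9 (ENSMUSG00000024359.10, chr18:34937414-34954357, minus) and Afg3l2 (ENSMUSG00000024527.10, chr18:67404764-67449172, minus) lie far apart on chromosome 18. Lonp1 (ENSMUSG00000041168.10, chr17:56614297-56626887, minus) and Clpp (ENSMUSG00000002660.8, chr17:56990305-56996188, plus) are both on chromosome 17. Clpx (ENSMUSG00000015357.10) covers chr9:65294260-65330658, Yme1l1 (ENSMUSG00000026775.9) chr2:23156369-23199260, Spg7 (ENSMUSG00000000738.18) chr8:123062942-123097760 and Oma1 (ENSMUSG00000035069.3) chr4:103313812-103371868, all on the plus strand.

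In WT mice the chaperones were the most abundant members. Hspa9 led with 810.5 ± 45.8 TPM (SD, n = 2), followed by Hspd1 with 527.6 ± 34.8 TPM and Hspe1 with 465.3 ± 55.2 TPM. The proteases were lower, from Lonp1 at 153.5 ± 67.0 TPM, Clpp at 145.0 ± 7.0 TPM and Afg3l2 at 130.2 ± 3.6 TPM, through Clpx at 90.9 ± 14.4 TPM and Spg7 at 51.9 ± 4.0 TPM, to Yme1l1 at 19.2 ± 0.31 TPM and Oma1 at 8.80 ± 1.77 TPM. Neighbours whose WT values overlapped were Hspd1 with Hspe1, and Lonp1 with both Clpp and Afg3l2. In ATF4 BKO mice (n = 3) the order was the same, with Hspd1 and Hspe1 again overlapping, except that Lonp1, at 83.6 ± 7.4 TPM, came after Clpp and Afg3l2 and overlapped Clpx at 80.2 ± 7.6 TPM. The 3 chaperones together made up 70.1 to 75.5% of the summed TPM of the 10 members in every mouse.

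**Figure D1:**
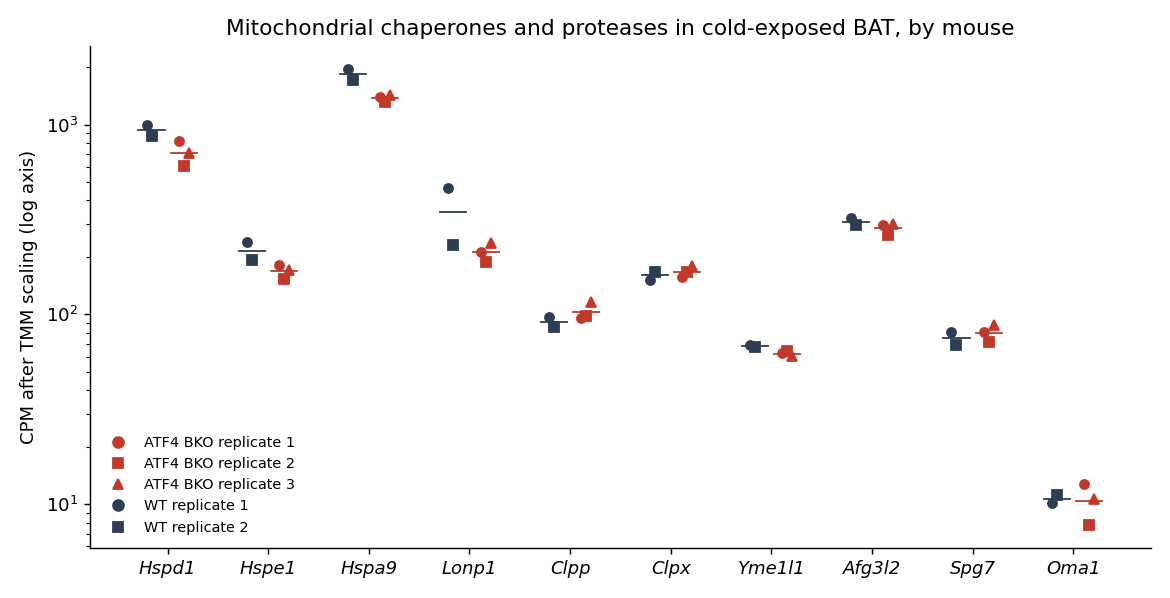
Level of each member in each mouse, as CPM after TMM scaling on a log axis, with ATF4 BKO in red, WT in dark blue and a bar at each group's mean. Hspd1, Hspe1, Hspa9 and Yme1l1 show all 3 ATF4 BKO mice below both WT mice, and the 2 WT mice differ most for Lonp1 (461.1 and 233.4 CPM).

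Whether the loss of ATF4 changed these transcripts in the cold was asked next. Of the 10 members, 7 were lower in ATF4 BKO (48.8% of all genes tested were, and 54.5% of the 6631 genes with a mean of at least 10 TPM) and 3 higher (51.2% of all genes). Their log2 fold changes had a median of -0.12, against 0.01 over all 16450 genes tested and -0.02 over the more abundant ones. The members' median was -0.17 among the S1 mice and -0.03 among the S2 mice. No member passed an adjusted p of 0.05 in edgeR, where 1 gene of 16450 did (0.00608%), or in DESeq2, where 121 did (0.736%, with 0.608% lower in ATF4 BKO). The 1 gene called by edgeR, the calcium channel gene Cacna1i, was higher in ATF4 BKO and is named here after its values were seen. At an unadjusted p under 0.05, 1 of 10 members (Hspa9) was lower in edgeR, against 3.42% of all genes lower, 1.81% higher and 5.23% in either direction (5.28% of those with at least 10 TPM). In DESeq2, 2 of 10 (Hspa9 and Lonp1) were lower, against 3.71% of all genes lower, 2.09% higher and 5.79% in either direction. In CPM the 3 ATF4 BKO mice lay below both WT mice for 4 of 10 members, Hspd1, Hspe1, Hspa9 and Yme1l1, against 10.6% of all genes tested and 12.0% of those with at least 10 TPM. They lay above both WT mice for none, against 8.95% of all genes. In TPM they lay below for 6 of 10, with Lonp1 and Afg3l2 added, against 24.9% of all genes and 34.5% of those with at least 10 TPM, and above for none, against 3.02%. The members were chosen with earlier results of these data known, so these shares are descriptions and not tests of the list. In whole tissue, fewer cells of a type and less RNA per cell cannot be told apart.

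The chaperones differed by similar amounts. Hspd1 encodes HSP60, the barrel in which imported proteins fold, and stood at 818.1, 601.9 and 709.2 CPM in ATF4 BKO and at 998.2 and 873.4 CPM in WT. The groups did not overlap, but the highest ATF4 BKO value and the lower WT value were close. The log2 fold change was -0.40 ± 0.18 (SE), with a 95% interval from -0.85 to 0.05 and an adjusted p of 0.911 in edgeR. It ran from -0.51 to -0.28 when single mice were left out.

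Hspe1 encodes HSP10, the lid of that barrel. It stood at 181.5, 153.2 and 171.8 CPM in ATF4 BKO and at 239.4 and 193.1 CPM in WT. All 3 ATF4 BKO mice were again lower, with WT replicate 2 the nearer control. The log2 fold change was -0.36 ± 0.16 (95% interval -0.74 to 0.02, adjusted p = 0.911 in edgeR), and -0.18 without WT replicate 1. It was -0.52 among the S1 mice and -0.17 among the S2 mice.

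Hspa9 encodes mortalin, the mitochondrial HSP70 that draws precursors through the inner membrane and starts their folding. It stood at 1391, 1322 and 1432 CPM in ATF4 BKO and at 1968 and 1726 CPM in WT. The ATF4 BKO mice lay close together and well below both controls. This was a log2 fold change of -0.42 ± 0.16, with a 95% interval from -0.80 to -0.03. Its unadjusted p was 0.0378 in edgeR and 0.00539 in DESeq2, and neither held after adjustment over all genes (0.911 and 0.304). It ran from -0.52 to -0.31 when single mice were left out, and was -0.54 among the S1 mice and -0.27 among the S2 mice.

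Lonp1 had the widest difference and the widest spread. Its product is the ATP-dependent protease that clears damaged proteins from the matrix. It stood at 212.6, 187.9 and 239.0 CPM in ATF4 BKO and at 461.1 and 233.4 CPM in WT. WT replicate 1 was far above the other 4 mice, and WT replicate 2 lay inside the ATF4 BKO range in CPM but above it in TPM (106.1 against at most 92.1). In the fit Lonp1 was at a log2 fold change of -0.70 ± 0.29 (95% interval -1.42 to 0.01, adjusted p = 0.911 in edgeR). WT replicate 1 decided this value, which was -0.12 without that mouse and -1.12 without WT replicate 2. Within the prefixes it was -1.20 among the S1 mice and 0.04 among the S2 mice.

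The subunits of the ClpXP protease, the other ATP-dependent protease of the matrix, were not lower in counts scaled by TMM. Clpp, the proteolytic chamber, stood at 96.1, 98.6 and 115.6 CPM in ATF4 BKO and at 96.6 and 86.2 CPM in WT, and Clpx, the unfoldase that feeds it, at 157.6, 168.1 and 179.1 CPM and at 152.6 and 168.3 CPM. Both overlapped between genotypes. The log2 fold change of Clpp was 0.18 ± 0.14 (95% interval -0.16 to 0.52), from 0.09 without WT replicate 2 to 0.28 without WT replicate 1. That of Clpx was 0.07 ± 0.13 (-0.25 to 0.39), from 0.01 without WT replicate 1 to 0.13 without WT replicate 2. Both were positive with TMM scaling, but that of Clpx was -0.04 with counts scaled by library totals alone, and both were at or below 0 on log2(TPM + 1). Clpp was at 0.01 among the S1 mice and 0.42 among the S2 mice.

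The inner membrane proteases came next. Yme1l1, whose product faces the intermembrane space, stood at 62.4, 64.0 and 60.2 CPM in ATF4 BKO and at 69.3 and 67.5 CPM in WT. The groups did not overlap and the mice of each group lay within a few CPM of each other, with a log2 fold change of -0.14 ± 0.11 (95% interval -0.40 to 0.13). It ran from -0.17 to -0.11 with single mice left out, and was -0.09 with protein-coding transcripts alone and -0.31 on log2(TPM + 1). Afg3l2, a subunit of the protease that faces the matrix, stood at 295.4, 260.6 and 299.4 CPM in ATF4 BKO and at 320.4 and 294.9 CPM in WT. In CPM, WT replicate 2 lay among the ATF4 BKO mice, and the log2 fold change was -0.11 ± 0.14 (-0.45 to 0.23). It was -0.03 without ATF4 BKO replicate 2 or WT replicate 1 and -0.18 without WT replicate 2. In TPM both WT mice (132.7 and 127.7) lay above the ATF4 BKO mice (104.5, 105.2 and 109.5).

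Spg7 encodes paraplegin, the partner of Afg3l2 in the same ring. It stood at 81.3, 71.8 and 87.8 CPM in ATF4 BKO and at 81.3 and 69.2 CPM in WT, with overlap and a log2 fold change of 0.09 ± 0.15 (95% interval -0.26 to 0.45), which was -0.09 among the S1 mice and 0.34 among the S2 mice. Oma1, the stress-activated protease that cuts OPA1, the inner membrane fusion protein, and DELE1, a messenger to the ATF4 pathway, stood at 12.8, 7.80 and 10.6 CPM in ATF4 BKO and at 10.1 and 11.2 CPM in WT. Both WT mice lay inside the ATF4 BKO range, and the log2 fold change was -0.04 ± 0.25 (-0.64 to 0.56). The intervals of the 6 proteases other than Lonp1 all lay within a log2 fold change of -0.64 to 0.56, with that of Oma1, the least abundant member, the widest.

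**Figure D2:**
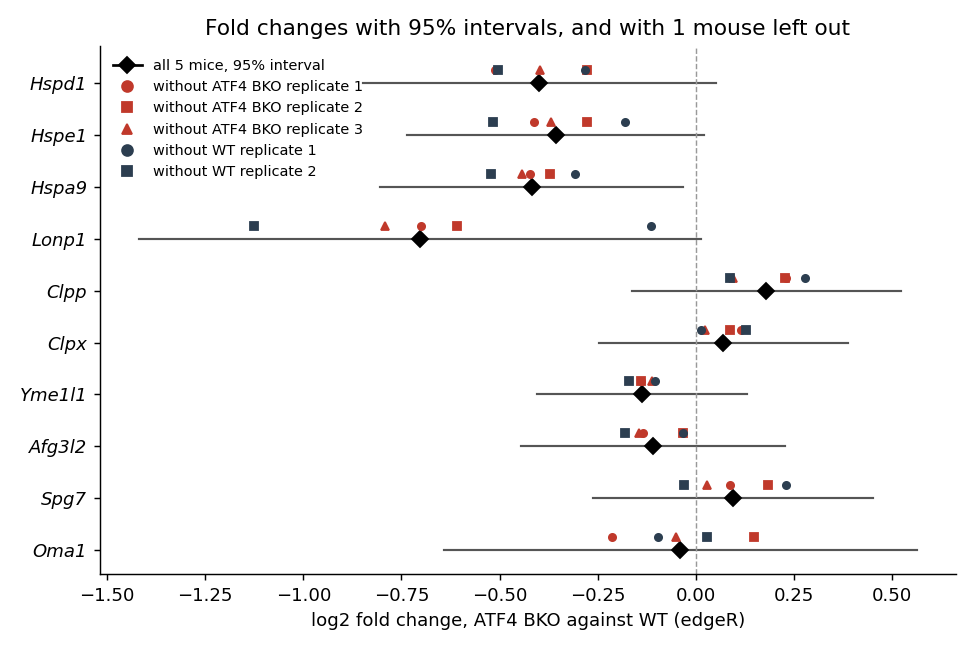
The log2 fold change of each member, ATF4 BKO against WT, from edgeR (black diamonds, with 95% intervals as lines) and with 1 mouse left out at a time (coloured points, by the mouse left out). Only the interval of Hspa9 lies wholly below 0 (-0.80 to -0.03), and Lonp1 moves from -0.70 to -0.12 without WT replicate 1.

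The gap was larger in TPM than in CPM. The 3 chaperones summed to 1222, 1192 and 1207 TPM in ATF4 BKO and to 1900 and 1708 TPM in WT, and on log2(TPM + 1) the fold changes were -0.59 for Hspd1, -0.53 for Hspe1 and -0.60 for Hspa9. The proteases were lower there too, with Lonp1 at -0.80, Yme1l1 at -0.31, Afg3l2 at -0.29, Clpx at -0.18, Spg7 at -0.15 and Oma1 at -0.07, while Clpp was at -0.000296. On that scale the median over all genes tested was also lower, at -0.12. Transcripts of the mitochondrial genome, which count towards each TPM total, made up 35.4, 29.5 and 32.5% of TPM in ATF4 BKO and 24.0 and 24.9% in WT, so that they moved with genotype, and their part in the TPM values was not tested.

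The members were then set against 22 nuclear genes of abundant mitochondrial proteins, among them citrate synthase, the porins and subunits of the respiratory chain, as a measure within each library. The summed TPM of the 3 chaperones was 5.04, 4.57 and 4.11% of that of the 22 genes in ATF4 BKO and 6.30 and 6.05% in WT. All 3 ATF4 BKO mice lay below both WT mice. The 7 proteases came to 1.85, 1.89 and 1.75% in ATF4 BKO and 2.14 and 1.96% in WT, a narrower gap without overlap that rested on Lonp1. The 6 proteases other than Lonp1 came to 1.52, 1.59 and 1.44% in ATF4 BKO and 1.47 and 1.58% in WT, with overlap. How many of all genes separate the genotypes on this scale was not computed. In TPM itself, all ATF4 BKO mice lay below both WT mice for 24.9% of all genes tested. For those with at least 10 TPM it was 34.5%.

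**Figure D3:**
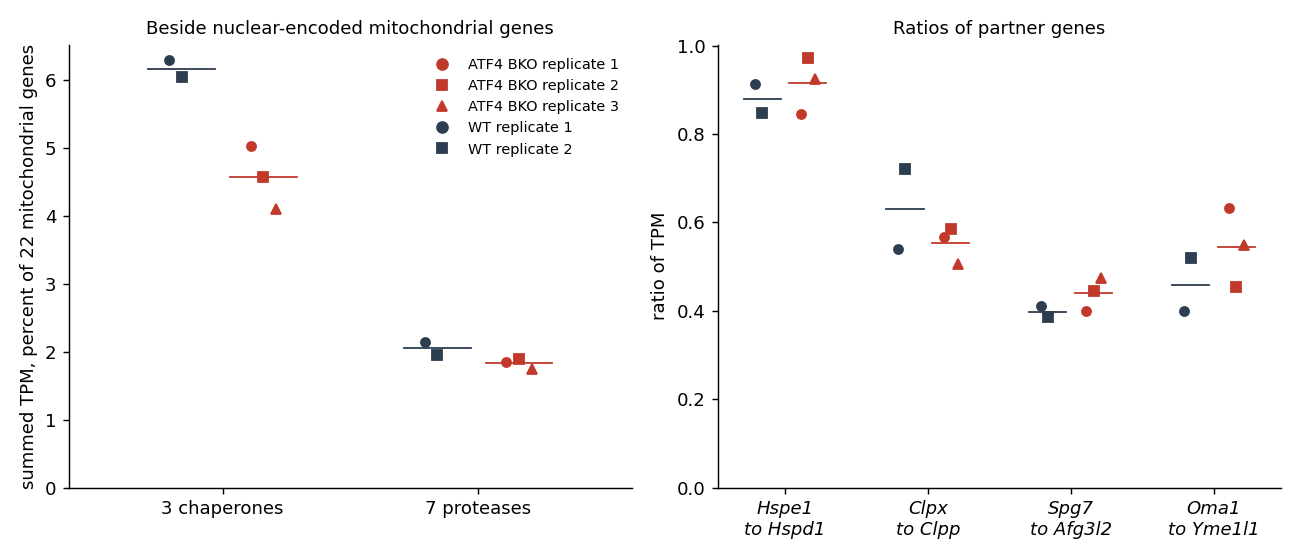
Left, summed TPM of the 3 chaperones and the 7 proteases as percent of the summed TPM of 22 nuclear-encoded mitochondrial genes in each mouse. Right, ratios of the TPM of partner genes, with a bar at each group's mean. The chaperones lie at 4.11 to 5.04% in ATF4 BKO and at 6.05 and 6.30% in WT, and every ratio overlaps between genotypes.

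Partners that work in 1 complex or on 1 substrate were compared by the ratio of their TPM, in 4 pairs. With 3 mice against 2, the two-sided exact permutation test cannot go below p = 0.2. Hspe1 to Hspd1, lid to barrel, was 0.846, 0.973 and 0.925 in ATF4 BKO and 0.913 and 0.847 in WT, a difference of 0.05 in log2 ratio (exact p = 0.6). Clpx to Clpp was 0.568, 0.586 and 0.505 against 0.539 and 0.722, a log2 difference of -0.18 (exact p = 0.6) that was -0.39 without WT replicate 1 and 0.03 without WT replicate 2. Spg7 to Afg3l2 was 0.400, 0.445 and 0.475 against 0.412 and 0.385, a log2 difference of 0.14 (exact p = 0.4). Oma1 to Yme1l1, whose products both cut OPA1, was 0.632, 0.455 and 0.548 against 0.399 and 0.519, a log2 difference of 0.25 (exact p = 0.4) that was 0.06 without WT replicate 1 and 0.44 without WT replicate 2. The groups overlapped for each pair, and each p was 0.6 after Benjamini-Hochberg adjustment over the 4. The last difference was 0.04 when only protein-coding transcripts were counted.

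Across the 5 mice, the profile of Hspe1 followed that of Hspd1 closely, with a Pearson correlation of 0.9563 of log2 CPM. That put Hspe1 at rank 53 of 6630 genes by likeness to Hspd1, and Hspd1 at rank 85 by likeness to Hspe1. The 5 genes most like Hspd1 were Tmem147 (0.9942), Tfam (0.9921), Cpn2 (0.9915), Dcun1d2 (0.9906) and Pank3 (0.9903). Clpx and Clpp (0.4989, ranks 1168 and 1251) and Spg7 and Afg3l2 (0.5274, ranks 1296 and 1819) were less alike, and Oma1 was under the 10 TPM needed for this ranking. These correlations are descriptions over 5 libraries that also differ in depth and genotype.

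Most members were read almost wholly from 1 protein-coding transcript. Hspd1-201, for example, took 98.0 to 99.0% of Hspd1 TPM in every mouse. Clpx was split between 3 protein-coding transcripts, of which Clpx-201 took 59.8, 55.8 and 60.5% in ATF4 BKO and 65.1 and 54.8% in WT. Spg7 had 13 transcripts, and its protein-coding share was 87.4, 74.5 and 74.3% in ATF4 BKO and 79.0 and 73.4% in WT. For Oma1 the protein-coding share was 83.0, 64.3 and 81.4% in ATF4 BKO and 94.0 and 80.2% in WT, the remainder being short transcripts with no coding sequence that rest on at most 15.0 counts per mouse. Shares overlapped between genotypes for Clpx-201, Spg7 and Oma1.

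**Figure D4:**
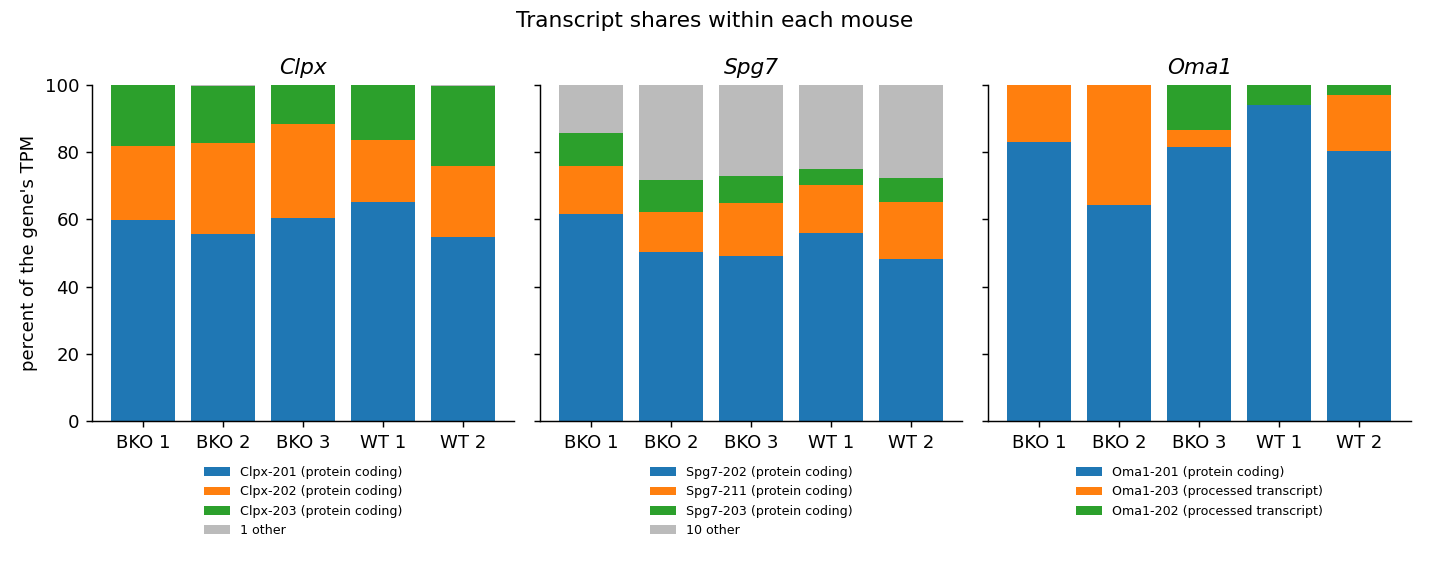
Percent of the TPM of Clpx, Spg7 and Oma1 in each annotated transcript, by mouse, as estimated by kallisto. Oma1-201, the only protein-coding transcript of Oma1, ranges from 64.3 to 94.0%, and its smallest share lies in ATF4 BKO replicate 2.

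The chaperones share sequence with other annotated genes, pseudogenes among them. Of the words of 31 bases in its annotated transcripts, Hspd1 shared 53.1% with other genes, Hspe1 30.5% and Hspa9 9.66%, while Lonp1, Clpp and Oma1 shared none. Most of the Hspd1 overlap was with the pseudogene Hspd1-ps3, and 5.68% of the Hspe1 words were shared with Hspd1 itself, where the 5′ ends of both genes overlap. Little was assigned to the pseudogenes: the 6 listed Hspd1 pseudogenes held at most 0.129% of the Hspd1 counts in any mouse, and adding them left the log2 ratio of Hspd1 at -0.40. The split between a gene and its copies is kallisto's estimate, so these 3 levels carry that uncertainty.

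Other genes of mitochondrial quality control differed by small amounts. Of 12 further mitochondrial chaperones and assembly factors, 9 were lower and 3 higher (median log2 fold change -0.09, with -0.003 without WT replicate 1 and -0.20 without WT replicate 2). The median was -0.25 among the S1 mice and 0.04 among the S2 mice. The co-chaperone Dnaja3, the most abundant gene of the 12, was at -0.18 ± 0.15 while Bcs1l, which assembles complex III, was at -0.21 ± 0.14. Of 16 further proteases and processing peptidases, 7 were lower and 9 higher, with a median of 0.03 that was -0.02 without WT replicate 2 and 0.04 without WT replicate 1. That median was 0.124 without ATF4 BKO replicate 2 and -0.055 without ATF4 BKO replicate 3, and -0.088 among the S1 and 0.113 among the S2 mice. The presequence protease gene Pitrm1 was at -0.27 ± 0.14, the peptidase gene Nln at -0.22 ± 0.12 and the complex III core subunit gene Uqcrc2, their most abundant gene, at 0.05 ± 0.17. None of these 28 genes reached an unadjusted p of 0.05 in edgeR, against 5.23% of all genes. In CPM all ATF4 BKO mice lay below both WT mice for 2 of the 12 and 3 of the 16, against 10.6% of all genes. They lay above for 0 of either list, against 8.95%.

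Scaffolds and substrates of the inner membrane proteases gave 9 lower and 4 higher genes of 13, with a median of -0.11 that was -0.02 without WT replicate 1 and -0.21 without WT replicate 2, and -0.26 among the S1 and 0.04 among the S2 mice. Among them Pgam5, a phosphatase cut under stress, was at -0.32 ± 0.13, the prohibitin gene Phb2 at -0.23 ± 0.15 and Ghitm, the most abundant, at -0.14 ± 0.17. Of 26 import genes, through which Hspa9 draws its clients, 24 were lower, with a median of -0.12 that was -0.03 without WT replicate 1 and -0.24 without WT replicate 2, and -0.24 among the S1 and 0.04 among the S2 mice. Tomm5 of the outer membrane pore was at -0.39 ± 0.16, the intermembrane space chaperone gene Timm9 at -0.23 ± 0.12 and Dnajc15, the most abundant, at -0.06 ± 0.13. Of the 22 mitochondrial genes used for comparison above, 13 were lower, with a median of -0.05 that was 0.08 without WT replicate 1, -0.12 without WT replicate 2, -0.18 among the S1 and 0.24 among the S2 mice, and the lowest p-values were those of the porin gene Vdac3 at -0.50 ± 0.13 and the ADP/ATP carrier gene Slc25a4 at -0.51 ± 0.16, while Atp5b of ATP synthase was at 0.12 ± 0.20. No gene of these lists passed the adjusted threshold in edgeR or DESeq2. In CPM all ATF4 BKO mice lay below both WT mice for 2 of the 13, 6 of the 26 and 5 of the 22 genes. This was so for 10.6% of all genes. They lay above for 0 of each list, against 8.95% of all genes.

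Chaperones of other compartments were described for contrast. Of 25 cytosolic chaperones, 22 were lower, with a median of -0.33 that was -0.07 without WT replicate 1 and -0.49 without WT replicate 2. Among the S1 mice the median was -0.47 and among the S2 mice -0.13. The small heat shock protein gene Hspb8 was at -0.65 ± 0.24 and the HSP90 gene Hsp90aa1 at -0.67 ± 0.28, whereas the most abundant, Hspa8, was at -0.01 ± 0.23. Of 16 chaperones of the endoplasmic reticulum, 12 were lower, with a median of -0.07 that was 0.07 without WT replicate 2 and -0.18 without WT replicate 1. This median was 0.15 among the S1 mice and -0.41 among the S2 mice. Hyou1 was at -0.18 ± 0.15, Hspa5, the gene of the chaperone BiP, at -0.17 ± 0.17 and Calr at -0.07 ± 0.17. In CPM all ATF4 BKO mice lay below both WT mice for 7 of the 25 cytosolic chaperones, against 10.6% of all genes. For the 16 of the endoplasmic reticulum it was 0. They lay above for 0 of either list, against 8.95% of all genes.

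Of 16 regulators of the response, 10 were lower and 6 higher, with a median of -0.19 (-0.09 without WT replicate 1 and -0.19 without WT replicate 2), and 4 had an unadjusted p under 0.05 in edgeR, all lower, against 3.42% of all genes. These were Atf4 itself, Atf5, Ppp1r15a and Esr1, of which the last 2 are named after their values were seen. Atf5, the transcription factor tied to induction of Hspd1 and Hspa9, stood at 89.7, 127.9 and 99.8 CPM in ATF4 BKO and at 419.2 and 280.9 CPM in WT. The groups were far apart, with a log2 fold change of -1.73 ± 0.23. Its adjusted p was 0.671 in edgeR and 1.71e-07 in DESeq2. Ubl5, the most abundant of the list, was at 0.11 ± 0.12. Of 24 classical ATF4 targets, among which Atf5 is counted again, 23 were lower with a median of -1.68 (-0.81 without WT replicate 1 and -2.02 without WT replicate 2). At an adjusted p of 0.05, 10 were called by DESeq2, against 0.736% of all genes, and 0 by edgeR, where 17 were lower at an unadjusted p under 0.05, against 3.42% of all genes. The folate cycle enzyme gene Mthfd2 was at -3.33 ± 0.45, and Slc3a2, the most abundant target, at -0.37 ± 0.27.

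**Figure D5:**
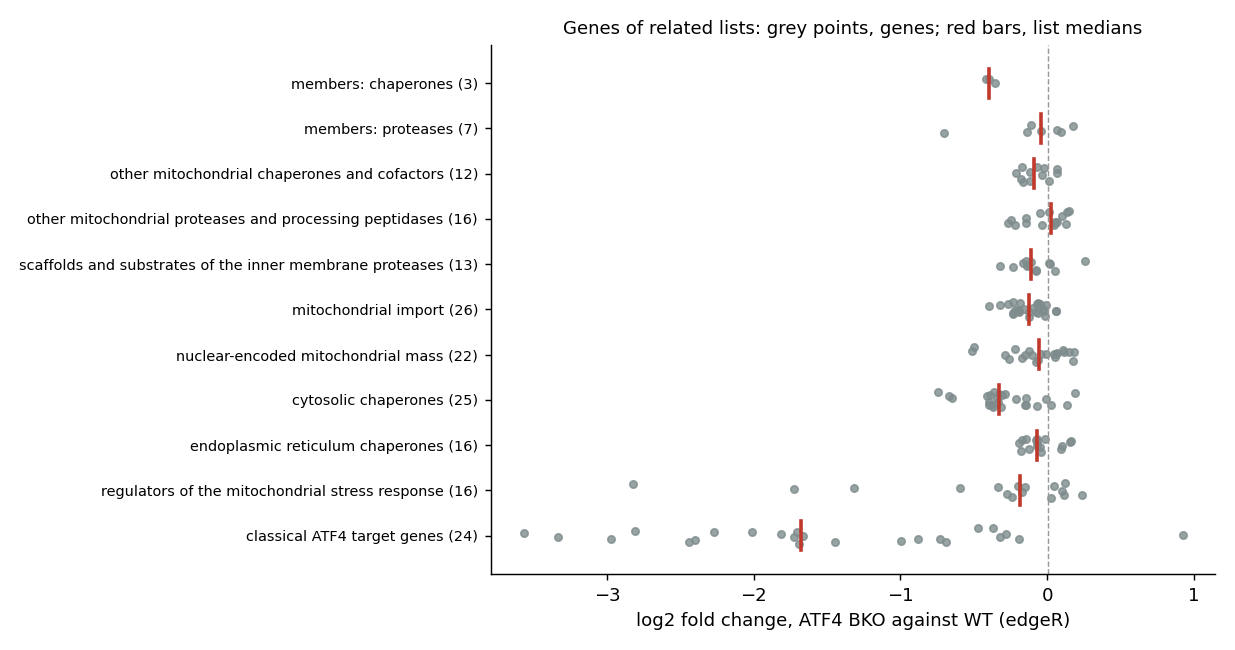
The log2 fold change, ATF4 BKO against WT, of each tested gene (grey points) in the members and 9 related lists, with the list median as a red bar and the number of genes in brackets. The chaperones among the members centre on -0.40, the proteases on -0.04 and the classical ATF4 targets on -1.68.

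Markers of other cells differed between libraries, and their part in the members' values was not tested. All 12 macrophage markers were higher in ATF4 BKO in the fit, but their summed level was 735.3, 1415 and 463.4 TPM in ATF4 BKO and 218.6 and 1260 TPM in WT, led by Lyz2, with overlap between genotypes. Of 21 skeletal muscle markers tested, 20 were lower in ATF4 BKO, and Mybpc1 was at 1, 0 and 0 counts there against 98 and 1493 in WT. Without WT replicate 2, the mouse with the most muscle transcripts, the median of the 10 members was -0.18 and that of the 3 chaperones -0.52, and without ATF4 BKO replicate 1 the chaperones were at -0.51 (Hspd1), -0.41 (Hspe1) and -0.42 (Hspa9). The medians of the brown adipocyte (0.16), pan-adipocyte (0.18), white adipocyte (0.22), endothelial (0.40), fibroblast (0.43), lymphocyte (0.43) and nerve (0.70) markers were positive, but of these only the endothelial and nerve medians stayed so with every mouse left out, within each prefix and on the TPM scales. The brown adipocyte median was -0.001 without ATF4 BKO replicate 3 and -0.05 on log2(TPM + 1), the pan-adipocyte median -0.08 on log2(TPM + 1), the white adipocyte median -0.33 without ATF4 BKO replicate 2, the lymphocyte median -0.02 without WT replicate 1 and the fibroblast median -0.98 among the S2 mice. The macrophage median of 0.38 was -0.27 without WT replicate 1, -0.02 without ATF4 BKO replicate 2 and 1.59 without WT replicate 2. It was 1.94 among the S1 mice and -1.23 among the S2 mice.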

How the data were processed

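The authors prepared libraries with a stranded mRNA kit, quantified reads with kallisto 0.45.0 (build mm10 per the submitters' processing notes) and deposited a table per mouse with the estimated counts and TPM of 141450 transcripts. The transcript annotation is not given in the sources used here. The authors' other workflow, by alignment to the genome, was not analysed here. Estimated counts and TPM of the 138191 transcripts matched to GENCODE M21 were summed per gene, and counts were rounded to whole numbers. The 3259 others, with 1.16 to 1.29% of the counts, were left out. The deposited transcript and effective lengths were used only to check the table. Counts were rebuilt from TPM by scaling to the summed counts of each library, without lengths.

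Genes that reached 10 counts in 2 or more mice were fitted in edgeR 4.0.16 (R 4.3.3) with TMM scaling and the quasi-likelihood test on genotype alone, with Benjamini-Hochberg adjustment over 16450 genes. The study's tool, DESeq2 (1.42.0 here), and limma 3.58.1 on log2(TPM + 1) and log2(TPM + 0.1) were alternatives, as were other scalings, no count filter, counts rebuilt from TPM, protein-coding transcripts alone, each mouse left out, and blocks for replicate number and name prefix. The order of the mice in TPM was added after seeing the data. The fit was tested on simulated counts in which every gene had the same biological spread. That test does not show the power of the fit in these data. The edgeR fit left 3 residual degrees of freedom and a biological coefficient of variation of 0.275. Each mouse gave 1 library, and no pair of libraries agreed within counting noise (chi-square per degree of freedom of at least 50.7). Partner ratios used exact permutation tests.

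The members and lists were chosen with earlier results of these data known. The text names all members, Atf4, Fgf21 and the sex-linked genes, the 5 genes most like Hspd1, and from each related list the 2 genes with the smallest unadjusted p and the most abundant gene. Other named genes are marked as such or illustrate a library.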

Additional observations from a re-analysis of the deposited data

How the results depend on the processing

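No member was called under any of the 15 alternatives, and their lowest adjusted p was 0.208, for Lonp1 without WT replicate 2. Hspd1, Hspe1, Hspa9, Lonp1, Yme1l1 and Afg3l2 were lower under each of them, but among the S2 mice alone Lonp1 was at 0.04 and Afg3l2 at 0.02. The other 4 changed sign. Clpp was at -0.000296 on log2(TPM + 1) and -0.000331 on log2(TPM + 0.1). Clpx was at -0.0381 when only library totals were scaled, -0.176 on log2(TPM + 1) and -0.177 on log2(TPM + 0.1). Spg7 was at -0.0154, -0.147 and -0.15 in the same order, and from -0.0296 (without WT replicate 2) to 0.23 with single mice left out. Oma1 was at 0.12 with counts rebuilt from TPM, and from -0.215 to 0.149 with single mice left out, above 0 without ATF4 BKO replicate 2 (0.149) and without WT replicate 2 (0.0272). The median over all genes was also lower with no TMM factors (-0.10) and on both TPM scales (-0.12 and -0.17). The median of the members was -0.299 on log2(TPM + 1) and -0.309 on log2(TPM + 0.1).

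The number of genes called over the whole table was 1 in edgeR, 121 in DESeq2, 8 with no count filter, 0 and 2 on the 2 TPM scales, and 0 to 23 with mice left out, the 23 without WT replicate 1. With the replicate number as a block it was 0 (711 at an unadjusted p under 0.05), and with the name prefix as a block 0 (876). The deviations of same-numbered mice from their group means correlated at 0.0473 and 0.2004 over 2 pairs. These pairs are not independent, because the deviations of the 2 WT mice mirror each other. Nothing in the labels pairs the mice. With 3 and 2 mice, even the narrowest 95% interval of a member, that of Yme1l1, ran from -0.40 to 0.13.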
